A study of Mus musculus with 32 samples.

Results

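Carboxylesterase transcripts were followed in mouse liver after partial hepatectomy, a surgery that removes part of the liver and is followed by regrowth, and in animals with a knockout of Mettl14. The 10 genes were taken by symbol (Ces1b, Ces1c, Ces1d, Ces1e, Ces1f, Ces1g, Ces2a, Ces2e, Ces3a and Ces3b), out of 55421 genes in the deposited table. The livers of 16 mice were sequenced as 32 libraries, an input (bulk RNA) and an IP from every animal. IP libraries hold RNA fragments caught by an anti-m6A antibody, m6A being adenosine methylated in mRNA. The animals formed 4 groups of 4. The sham flox animals (sham surgery, Flox control) were 71 to 77 days old. The hepatectomy flox (partial hepatectomy, Flox control), sham KO (sham surgery, Mettl14 knockout) and hepatectomy KO animals (partial hepatectomy, Mettl14 knockout) were 72 to 73 days old. The labels name neither the promoter that drives the recombinase nor the strain, the sex, the time between surgery and sampling or shared litters.

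Carboxylesterases are enzymes of the endoplasmic reticulum that split ester bonds, and the liver is one of the tissues richest in them. They activate or inactivate ester drugs, and several also hydrolyse stored triacylglycerol and so supply lipid for lipoprotein secretion. The Ces1 class prefers esters with a large acyl group and a small alcohol group, and the Ces2 class the opposite. METTL14 pairs with METTL3 to form the complex that writes m6A. The level of a transcript in an IP library reflects both how much of the mRNA is present and how much of it the antibody binds, and the input library of the same liver gives the amount of mRNA.

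All 10 genes lie on chromosome 8, by the coordinates of the deposited table, whose build no label names. The Ces1 genes sit side by side on the minus strand between 93056728 (end of Ces1b) and 93337308 (start of Ces1g). The Ces2 and Ces3 genes follow on the plus strand, from 104734003 (start of Ces2a) to 105093929 (end of Ces3b). The 6 Ces1 genes each have 14 merged exons, Ces2a has 11, Ces2e and Ces3b have 12 and Ces3a has 13. Such tandem copies can share reads: the deposited estimates of Ces1c were not whole numbers in 27 of 32 libraries and those of Ces1b in 24, whereas those of Ces2e were not whole in 3. How much of the level of Ces1b or Ces1c comes from shared reads was not tested.

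Start regions were available from RefSeq (GRCm38.p6) for 7 of the 10 genes, and 4 of them are printed, each from 100 bases before the start to 50 bases after it. Ces1b and Ces1c are shown because they are near copies. Ces3b and Ces2e are shown because the estimated IP changes in the hepatectomy KO animals described below had opposite signs, although that of Ces2e was not called. A link between start region and level was not tested. Capitals mark a CCAAT box (CCAAT, or ATTGG on the other strand) or a TATA box (TATAAA or its reverse). The windows are chr8:93079891-93080040 (minus strand) for Ces1b, chr8:93131234-93131383 (minus strand) for Ces1c, chr8:105083655-105083804 (plus strand) for Ces3b and chr8:104926160-104926309 (plus strand) for Ces2e.
Ces1b: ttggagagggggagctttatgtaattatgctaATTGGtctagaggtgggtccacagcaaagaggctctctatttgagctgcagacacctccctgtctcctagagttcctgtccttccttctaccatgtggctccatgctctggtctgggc
Ces1c: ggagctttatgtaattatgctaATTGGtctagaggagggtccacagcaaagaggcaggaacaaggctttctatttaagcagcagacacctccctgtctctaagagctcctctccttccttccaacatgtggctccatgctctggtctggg
Ces3b: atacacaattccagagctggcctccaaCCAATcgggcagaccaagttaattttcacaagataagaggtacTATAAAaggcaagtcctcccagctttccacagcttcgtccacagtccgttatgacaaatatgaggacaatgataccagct
Ces2e: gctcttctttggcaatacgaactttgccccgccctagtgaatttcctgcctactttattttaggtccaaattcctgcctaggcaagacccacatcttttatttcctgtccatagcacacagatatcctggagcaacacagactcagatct

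The Ces1b and Ces1c windows shared an unbroken run of 35 bases around the ATTGG, the longest among the 21 pairs of genes, and Ces2a and Ces2e shared the next longest, 12 bases. Ces3b carried a CCAAT box 73 bases and a TATA box 30 bases before the start. Ces1g also had both within 100 bases before its start, in the other orientation, and a further CCAAT 179 bases before it. Neither motif was found in the Ces2e window. Within the longer region of 250 bases before to 50 bases after the start, a TATA box occurred in 13.6% of 32817 RefSeq promoters and a CCAAT box in 37.4%. A CCAAT box between 80 and 50 bases before the start, a window chosen after the matches were seen, occurred in 5 of the 7 genes (Ces1b, Ces1c, Ces1g, Ces2a and Ces3b) and in 7.47% of all promoters. A gene was counted if any of its starts had the box. The 7 genes have 8 such regions, as Ces1b has a further start, not printed, with the ATTGG 9 to 13 bases after it. The HNF1 palindrome (0.00914% of promoters) and the letters of an HNF4 site (CAAAGTCCA, 0.475%), both searched on both strands, were in none of the 7.

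Inputs had total counts of 8178017 to 12534161. Those of the IP libraries ran from 7133988, in hepatectomy KO replicate 4, to 24298816. An input library held 4176 to 9354 genes with at least 10 counts and an IP library 6676 to 16846, so the inputs were the less complex. Mettl14, the targeted gene, was at 0 in all 16 inputs and was above 0 in 2, 3, 2 and 1 IP libraries of the sham flox, hepatectomy flox, sham KO and hepatectomy KO groups, so the genotype labels could not be checked at this depth. Summed CPM (counts scaled to 1000000 per library) of 6 hepatocyte markers was at least 33367 in each input, and none of those markers was at 0 in all libraries. As inputs and IP libraries were made with different kits, a kit effect and antibody binding cannot be told apart in any ratio of IP to input.

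Ces1c, which encodes a carboxylesterase secreted into the blood, and Ces3a were the most abundant members by far. In input, the mean CPM per kilobase of exon over 16 animals was 349 for Ces1c and 229 for Ces3a. The next were Ces1g with 41.6 and Ces2a with 31.3, and the lowest were Ces1e with 6.82 and Ces1b with 4.71. The IP order was alike at both ends on the same per-kilobase scale, with Ces1c at 303, Ces3a at 258, Ces3b at 46.4, Ces1e at 9.03 and 9.89 for Ces1b. Together Ces1c and Ces3a made 52.9% to 91.4% of the summed CPM of the 10 genes in a library. The spread between animals followed abundance: the coefficient of variation within an input group was 11.4% to 62.0% for Ces1c and 9.99% to 28.9% for Ces3a, but 75.1% to 189% for Ces3b and 68.7% to 182% for Ces2a. Neighbours in the middle of the order (Ces1g, Ces2a, Ces2e, Ces3b and Ces1d in input) differed by less than this spread.

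**Figure D1:**
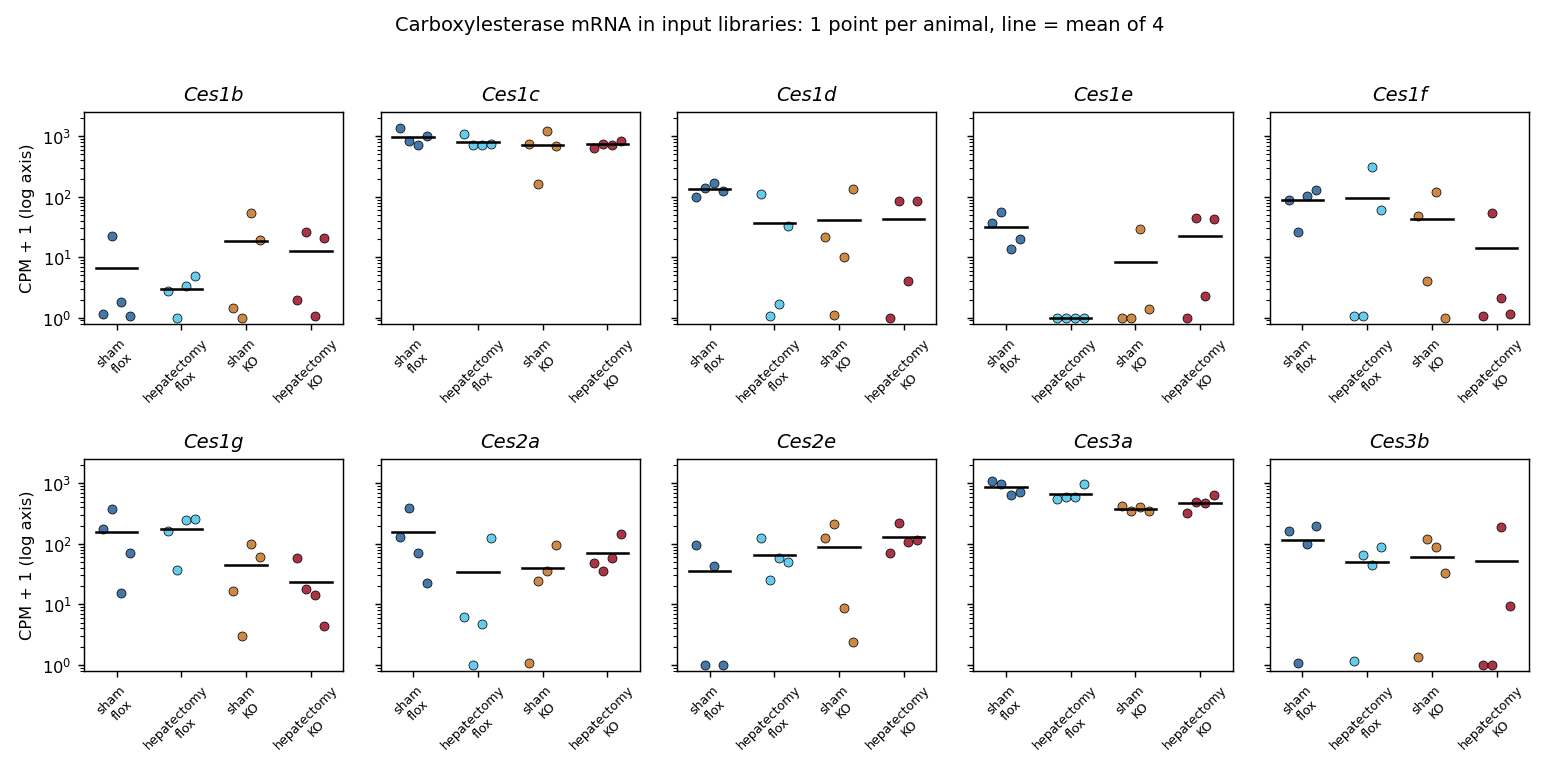
Input level of each carboxylesterase gene in every animal (CPM + 1, log axis) by group, with 1 point per animal and a line at the mean of 4. Ces3a lies between 323 and 1111 CPM and Ces1c between 160 and 1369 CPM, with its low point in sham KO replicate 2, while Ces1d, Ces1f, Ces2a, Ces2e and Ces3b run from 0 to over 100 CPM.

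In the hepatectomised animals, the IP levels of Ces3b and Ces1f were lower in KO than in flox livers, and no member passed upward (0 of 10, against 0.342% of the genes tested). Ces3b stood at 81.1, 46.7, 93.8 and 161 CPM in the 4 flox animals and at 0.117, 0.154, 7.82 and 0 CPM in the 4 KO animals, where 3 libraries had 3 or fewer counts. The groups did not overlap, and KO replicate 3 held 129 of the 134 counts of its group. The fitted log2 change of Ces3b was -5.78 (SE 1.0, n = 4 and 4, edgeR adjusted p = 0.0017), and it was -9.94 without KO replicate 3, so its size rests on that library. Ces1f, a liver enzyme that handles triacylglycerol for lipoprotein particles, stood at 68.6, 48.3, 52.7 and 42.4 CPM in flox and at 15.7, 12.5, 3.45 and 7.29 CPM in KO animals. Every KO animal was below every flox animal, with a log2 change of -2.71 (SE 0.52, edgeR adjusted p = 0.0049). Thus 2 of 10 members passed the test downward, against 1.13% of the 14024 genes tested. The median log2 change was -1.66 over the 10 members and 0.01 over all genes tested, and 9 of 10 were below 0.

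The remaining members did not pass in this comparison. Ces1d, triacylglycerol hydrolase, had 31.4, 44.0, 13.6 and 24.8 CPM in flox IP libraries and 5.998, 7.69, 0.242 and 0 CPM in KO ones. The ranges did not overlap, yet the log2 change of -3.3 (SE 0.95) had an edgeR adjusted p of 0.082. Ranges lay apart downward for 3 members (Ces1d, Ces1f and Ces3b), against 3.64% of all genes. Ces3a had 583, 471, 713 and 971 CPM in flox and 94.1, 119, 40.8 and 657 CPM in KO animals. KO replicate 4 lay inside the flox range and the other 3 far below it (log2 change -1.86, SE 0.53, edgeR adjusted p = 0.081). Ces1c had 967, 572, 747 and 368 CPM in flox and 349, 448, 148 and 653 CPM in KO animals, which overlapped (log2 change -1.01, SE 0.38, edgeR adjusted p = 0.22). Ces2e, of the Ces2 class, was the only member with a positive estimate (log2 change 1.16, SE 0.6, edgeR adjusted p = 0.43). It had 49.7, 42.4, 72.5 and 52.3 CPM in flox and 245, 189, 122 and 21.0 CPM in KO animals: 3 KO livers were above all flox livers and replicate 4 was below them all.

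Hepatectomy KO replicate 4, whose IP library was the shallowest, weighed on these counts. Without it 5 members passed downward (Ces1c, Ces1d, Ces1f, Ces3a and Ces3b), against 2.24% of 14963 genes tested. Ces3a then had a log2 change of -3.28 (SE 0.4, edgeR adjusted p = 9.7e-06), Ces1d of -2.9 (adjusted p = 0.04) and Ces1c of -1.35 (adjusted p = 0.05 as rounded). Ces3a, not called in the main fit, was also called with upper-quartile scaling (log2 change -1.96, edgeR adjusted p = 0.043). With the replicate number as a block it was called as well (-2.26, edgeR adjusted p = 0.023), but no label says that animals of the same number share a batch.

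**Figure D2:**
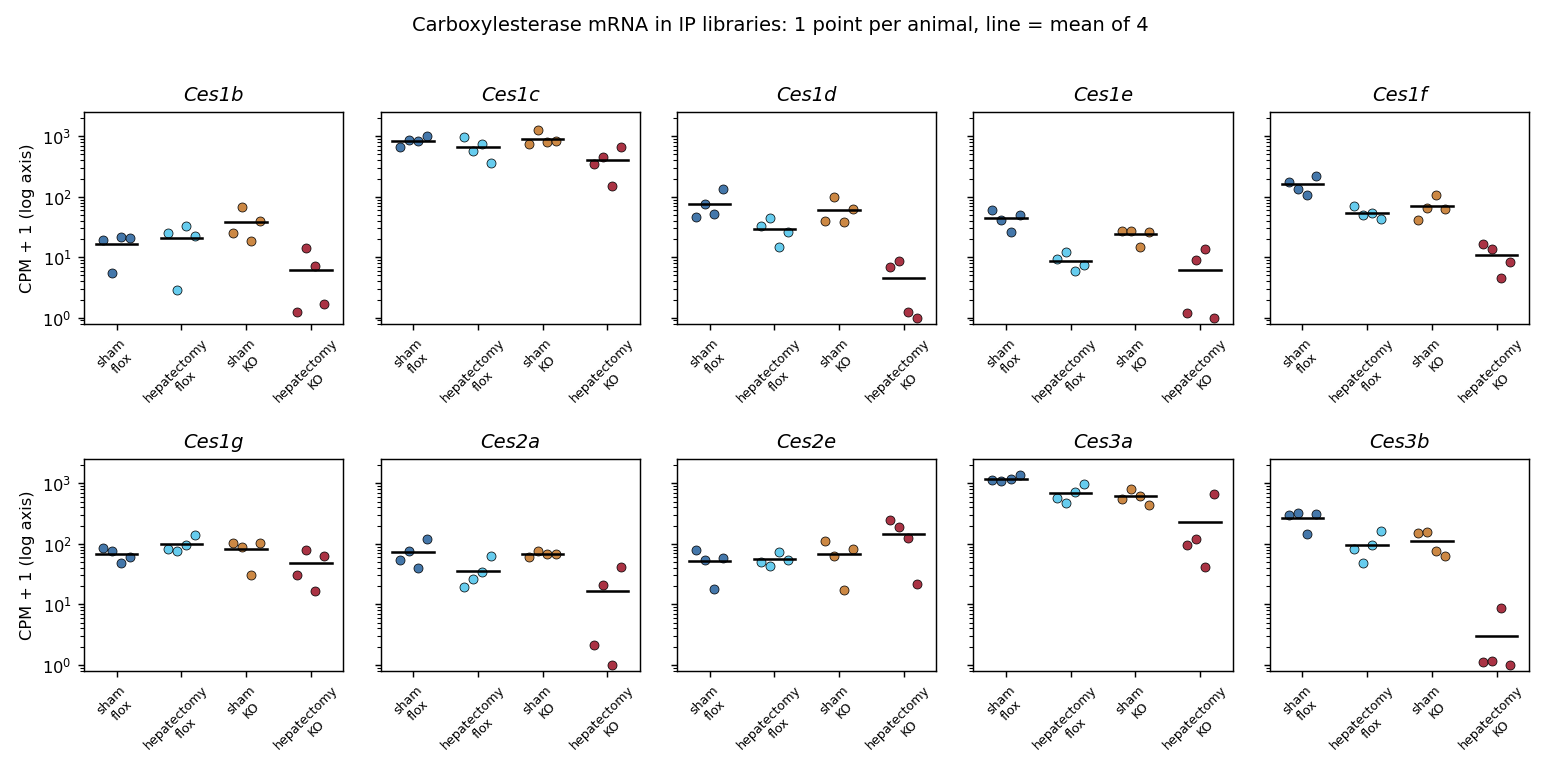
IP level of each carboxylesterase gene in every animal (CPM + 1, log axis) by group, with 1 point per animal and a line at the mean of 4. In the hepatectomy KO group Ces3b is at or below 7.82 CPM and Ces1f at or below 15.7 CPM, under every animal of the other groups, while Ces2e reaches 245 CPM.

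Within KO animals, hepatectomy went with lower IP levels of the same pair and of Ces1d. The sham KO animals had 153, 158, 76.0 and 61.5 CPM of Ces3b, far above the hepatectomy KO values given above (log2 change -5.88, SE 1.0, edgeR adjusted p = 0.0037, and -10.05 without hepatectomy KO replicate 3). Their Ces1f levels were 40.5, 64.5, 108 and 61.1 CPM (log2 change -2.91, SE 0.52, edgeR adjusted p = 0.0053). Ces1d levels in sham KO were 38.8, 98.0, 37.2 and 62.4 CPM (log2 change -4.2, SE 0.98, edgeR adjusted p = 0.043). The Ces1d call did not hold without any of sham KO replicates 2, 3 and 4 or hepatectomy KO replicates 1 and 3 (adjusted p = 0.18, 0.061, 0.063, 0.074 and 0.11). These 3 calls of 10 stood against 0.578% of 14024 genes lower and 0.0499% higher in this comparison, and the members' median log2 change was -2.24 against -0.09 over all genes. This comparison uses the same hepatectomy KO libraries as the one above.

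Ranges of the sham KO and hepatectomy KO animals lay apart downward in IP for 7 of 10 members (Ces1b, Ces1c, Ces1d, Ces1e, Ces1f, Ces2a and Ces3b), against 4.35% of all genes. Ces2a, a hepatic member of the Ces2 class, had 58.6, 74.8, 66.1 and 67.6 CPM in sham KO animals and 1.11, 19.8, 0 and 40.4 CPM after hepatectomy. Its sham animals were close together and its hepatectomised ones far apart, and the log2 change of -2.25 (SE 0.98) did not pass (edgeR adjusted p = 0.42). Ces1e, egasyn, which anchors beta-glucuronidase in the endoplasmic reticulum, had 26.2, 26.1, 13.7 and 25.6 CPM in sham KO and 0.175, 8.10, 12.6 and 0 CPM in hepatectomy KO animals (log2 change -2.23, SE 1.15, edgeR adjusted p = 0.59). Ces1b, the least abundant in input, had 24.5, 66.6, 17.7 and 39.2 CPM against 0.233, 13.5, 6.18 and 0.701 CPM (log2 change -3.0, SE 1.16, edgeR adjusted p = 0.35). Without hepatectomy KO replicate 4, Ces1c (log2 change -1.66, edgeR adjusted p = 0.023) and Ces3a (-2.98, edgeR adjusted p = 8.1e-05) passed too, which made 5 members against 1.34% of genes.

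**Figure D3:**
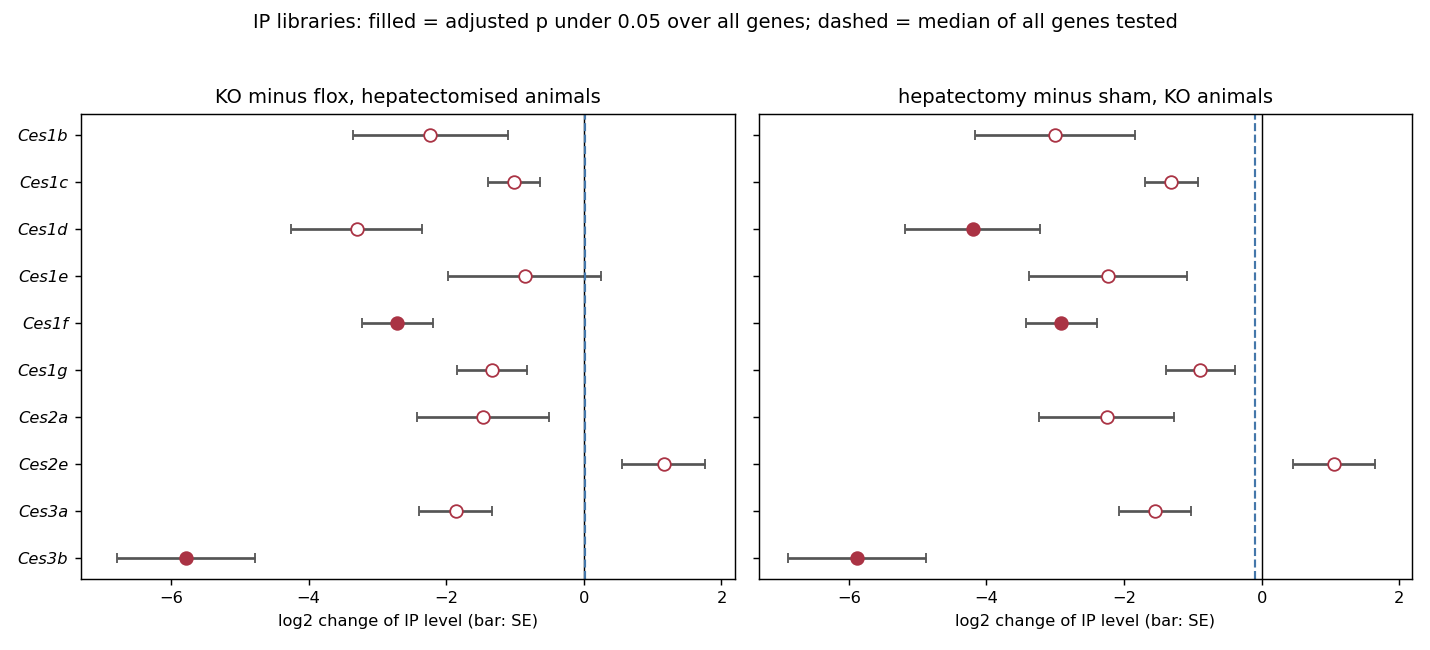
Log2 change of the IP level of each gene, with its SE, for KO minus flox in hepatectomised animals (left) and hepatectomy minus sham in KO animals (right); filled points passed an adjusted p of 0.05 and the dashed line is the median of all genes tested. Ces3b lies near -5.8 in both panels, and Ces2e is alone to the right of 0.

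After hepatectomy, 2 of the 6 hepatocyte markers were called lower in KO than in flox IP libraries and 0 higher (1.13% and 0.342% of all genes). They were Cyp2e1 (log2 change -2.45, edgeR adjusted p = 0.00076) and Apoa1 (-1.44, edgeR adjusted p = 0.0098), while the mean of Cps1 was higher in KO (904 against 562 CPM). The summed CPM of the 6 markers was 20526, 19871, 11380 and 28393 in hepatectomy KO IP libraries. It was 29369 to 44128 in hepatectomy flox, without overlap, and 26873 to 43063 in sham KO animals, with overlap. Among the hepatectomy KO animals, replicate 3, the lowest, was also the lowest in Ces1c, Ces1f, Ces1g, Ces2a and Ces3a but the highest in Ces1e and Ces3b. Replicate 4, the highest, was the highest in Ces1c, Ces2a and Ces3a but the lowest in Ces1d, Ces1e, Ces2e and Ces3b. The 5 Kupffer cell and macrophage markers found (of 6) summed to 289 to 701 CPM in hepatectomy KO IP libraries, 229 to 335 in hepatectomy flox and 225 to 420 in sham KO ones. The 6 endothelial markers summed to 185 to 662, 186 to 288 and 318 to 367 CPM in the same groups. The 6 stellate cell and fibroblast markers summed to 347 to 560 CPM in hepatectomy KO, above the 161 to 220 CPM of hepatectomy flox without overlap, and to 156 to 568 CPM in sham KO animals. In the inputs of the hepatectomy KO animals the hepatocyte sum was 33367 to 40456 CPM, which overlapped the other groups. The part of these shifts in the carboxylesterase results was not tested, and in bulk liver fewer cells of a type and less RNA per cell cannot be told apart.

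In flox animals, hepatectomy changed no member's IP level past the threshold (0 of 10 by edgeR, against 0.0285% of genes in either direction; 2 members and 970 of all genes had an unadjusted p below 0.05, and DESeq2 called 0). The ranges still lay apart downward for 4 members, Ces1d, Ces1e, Ces1f and Ces3a, against 2.29% of genes. Ces1f had 177, 132, 108 and 221 CPM in sham flox animals, and all 4 hepatectomy flox animals were lower (log2 change -1.52, SE 0.5, edgeR adjusted p = 0.63). Ces1e had 59.7, 39.6, 24.8 and 48.9 CPM in sham flox and 8.17, 11.4, 4.86 and 6.46 CPM in hepatectomy flox animals (log2 change -2.41, SE 1.16, edgeR adjusted p = 0.71). Ces1g, an enzyme linked to hepatic fat synthesis, leaned the other way, with 85.1, 74.0, 46.9 and 60.6 CPM against 81.5, 74.3, 94.3 and 138 CPM (log2 change 0.6, SE 0.5, edgeR adjusted p = 1).

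The difference between the genotypes' responses to hepatectomy was tested as an interaction, and it called 0 of 10 members in IP (0.0285% of all genes in either direction; 4 members and 1107 of all genes had an unadjusted p below 0.05, and DESeq2 called 0). Ces3b came closest (log2 -4.47, SE 1.2, edgeR adjusted p = 0.29). It passed without hepatectomy KO replicate 3 (-8.63, edgeR adjusted p = 3.4e-06), and Ces3a passed without replicate 4 (-2.23, edgeR adjusted p = 0.038). The falls seen in KO animals are thus not shown to differ from the changes in flox animals.

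Ces3a was the only member whose sham flox and sham KO ranges lay apart, although edgeR did not call it. Its IP level was 1148, 1083, 1163 and 1380 CPM in sham flox animals and 553, 811, 627 and 446 CPM in sham KO animals. Its input level was 1111, 968, 653 and 726 CPM in sham flox animals against 425, 345, 402 and 355 CPM in sham KO animals. Every KO animal was below every flox animal in both kinds of library. Ranges lay apart downward in 1.19% of genes in IP and 0.684% in input, and Ces3a was the 1 member of 10 in each. The log2 changes of -1.06 (SE 0.52, edgeR adjusted p = 0.9) in IP and -0.97 (SE 0.47, edgeR adjusted p = 0.53) in input did not pass. DESeq2 called the input difference (log2 -1.15, DESeq2 adjusted p = 0.00067). No member was called between sham genotypes in IP by edgeR (0 of 10, against 0.0927% of genes in either direction). The 1 member with an unadjusted p below 0.05 there was Ces1f (log2 change -1.32, SE 0.49), whose ranges overlapped. DESeq2 also called 0 there.

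In the inputs no member passed in any comparison by edgeR. The counts were 0 of 10 for KO against flox in sham animals (0.0114% of 8775 genes called), 0 of 10 for KO against flox after hepatectomy (0.0342%), 0 of 10 for hepatectomy against sham in flox (0.0%), 0 of 10 for the same in KO (0.0228%) and 0 of 10 for the interaction (0.0%). Unadjusted p-values below 0.05 occurred for 1, 1, 1, 0 and 1 members in that order, and DESeq2 called 1, 1, 1, 0 and 1. Ces1c, for one, had 1094, 725, 722 and 736 CPM in hepatectomy flox and 636, 755, 707 and 836 CPM in hepatectomy KO inputs (log2 change 0.06, SE 0.42). Ces1g was lower on average in hepatectomy KO inputs (56.4, 16.9, 13.4 and 3.35 CPM) than in flox inputs (164, 35.7, 246 and 255 CPM), with an overlap of 1 flox animal (log2 change -2.78, SE 1.59, edgeR adjusted p = 0.51). Ces2e stood at 126, 23.9, 57.5 and 49.3 CPM in hepatectomy flox and at 70.7, 221, 108 and 114 CPM in hepatectomy KO inputs (log2 change 1.21, SE 1.77, edgeR adjusted p = 1).

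Ces1e gave the sharpest contrast in input, where its hepatectomy flox and sham flox ranges lay apart (downward in 1.15% of genes; 1 of 10 members). It was at 0 counts in all 4 hepatectomy flox inputs, while the sham flox inputs held 35.7, 55.4, 12.7 and 19.1 CPM. Pooled over the group and read with a floor of 3 counts, hepatectomy flox was at least 491-fold lower than sham flox. Hepatectomy KO (0, 44.1, 1.31 and 41.8 CPM) was likewise at least 333-fold higher than hepatectomy flox, though the ranges of the animals overlapped at 0. The edgeR adjusted p-values were 0.23 and 0.28, and DESeq2 called both. The IP libraries of the same 4 flox animals nevertheless held 4.86 to 11.4 CPM of Ces1e, against 24.8 to 59.7 CPM in sham flox (log2 change -2.41). The input bounds therefore cover counting error only, and transcripts that an input library missed are outside them.

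Such gaps between the libraries of an animal were frequent. Of 160 pairs of animal and gene, 26 had 3 or fewer counts in input and 10 or more in IP, 7 of them for Ces1e and 5 each for Ces1b and Ces1f. None occurred for Ces1c, Ces1g or Ces3a. The reverse, 3 or fewer counts in IP and 10 or more in input, occurred in 4 pairs, for Ces1d, Ces1e, Ces2a and Ces3b, all in hepatectomy KO animals. Ces3b in hepatectomy KO replicate 3 had 2347 input counts and 129 IP counts, whereas replicates 1 and 2 had 0 input counts and 2 and 3 IP counts.

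The log2 ratio of IP to input, on the log2(CPM + 1) scale per animal, varied least between animals for Ces3a outside the hepatectomy KO group. Its sham flox animals had 0.05, 0.16, 0.83 and 0.93, while the values were 0.11, -0.36, 0.26 and 0.00 in hepatectomy flox, and 0.38, 1.23, 0.64 and 0.33 in sham KO animals. In hepatectomy KO animals it was -1.77, -2.06, -3.5 and 0.06, below all sham KO animals, with replicate 4 at the flox level. For Ces1c the hepatectomy KO values were -0.87, -0.75, -2.25 and -0.36, and they overlapped the hepatectomy flox values of -0.18, -0.34, 0.05 and -1.0. Its sham KO animals had 0.02, 2.99, -0.63 and 0.24, with replicate 2 far above the rest. Between hepatectomy flox and sham flox animals the ranges of 1 member, Ces1e, lay apart upward (1.71% of genes). The sham KO and hepatectomy KO ranges lay apart downward for 2 of 10 members, Ces2a and Ces3a, against 2.85% of genes. Less abundant members spread over many units within a group. Ces1g ranged from -1.68 to 4.91 in sham KO animals, and Ces3b ranged from -0.48 to 6.14 in hepatectomy flox and from -4.45 to 0.21 in hepatectomy KO animals.

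**Figure D4:**
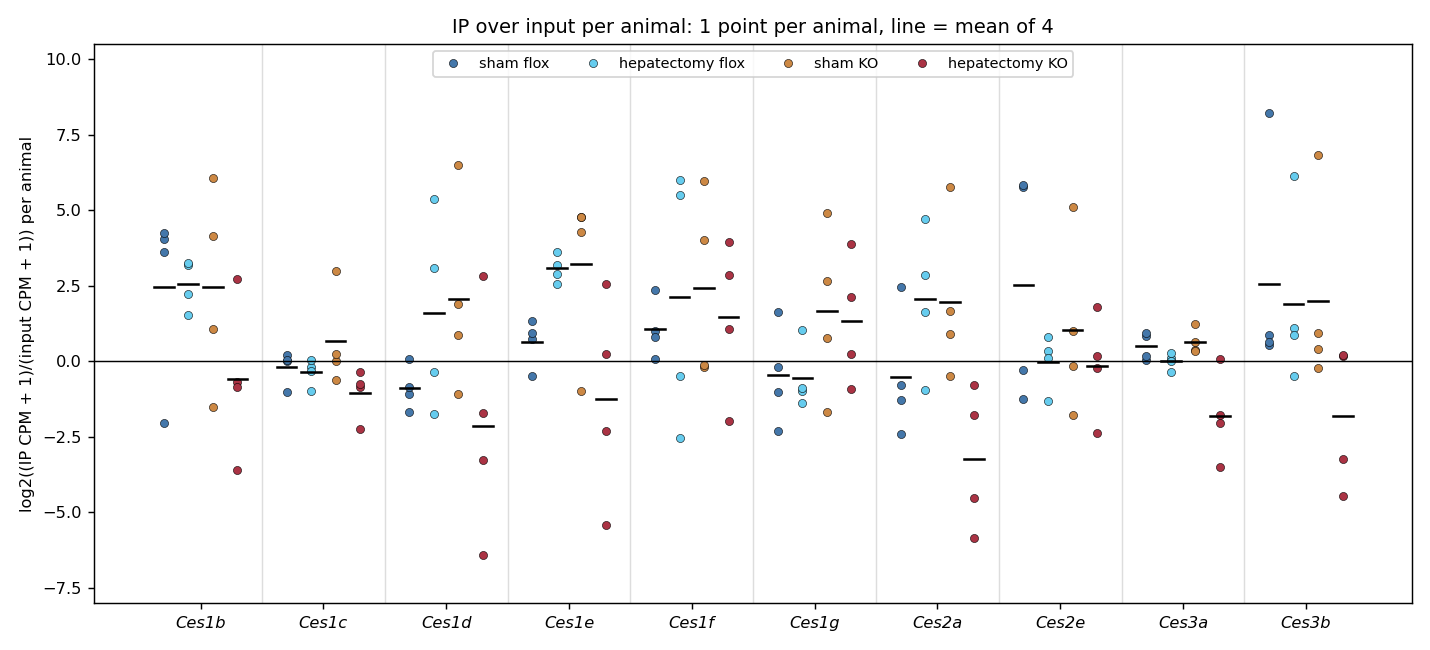
Log2 ratio of IP to input level (CPM + 1) for each gene and animal, coloured by group, with a line at the mean of 4 animals. Ces3a lies between -0.36 and 1.23 outside the hepatectomy KO group, where 3 animals lie between -3.5 and -1.77; Ces1c has 1 sham KO animal at 2.99 and 1 hepatectomy KO animal at -2.25, and most other genes scatter over several units.

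Fitted over all 32 libraries, IP/input called no member within a group (0 of 10 each; 0.258%, 1.2%, 0.0209% and 0.335% of 14332 genes in sham flox, hepatectomy flox, sham KO and hepatectomy KO). Unadjusted p-values below 0.05 numbered 0, 1, 0 and 4 members, and DESeq2 called 0, 1, 0 and 1. The median log2 IP/input of all genes was itself 0.95, 1.28, 0.7 and 0.3 in those groups, and that of the 10 members 0.72, 0.25, 0.63 and -1.34. That of the 6 hepatocyte markers was 0.26, 0.12, -0.43 and -1.08. In hepatectomy KO animals 3 of these 6 were called lower and 0 higher: Cyp2e1 (-2.12), Cps1 (-1.72) and Alb (-1.24). A low ratio there was thus not particular to the carboxylesterases. In hepatectomy KO animals Ces3b had -5.06 (SE 1.78, edgeR adjusted p = 0.17), Ces3a -1.34 (SE 0.49, adjusted p = 0.17) and Ces1c -1.12 (SE 0.44, adjusted p = 0.17). Between groups edgeR called 0 of 10 in each of 5 comparisons: KO against flox in sham (0.0209% of genes) and hepatectomised animals (0.712%), hepatectomy against sham in flox (0.181%) and KO animals (0.0349%), and the interaction (0.0349%). Members with an unadjusted p below 0.05 numbered 0, 3, 1, 3 and 1, and DESeq2 called 0, 1, 1, 0 and 1.

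For KO against flox after hepatectomy, the members' median IP/input change was -2.29 and that of all genes -0.99, so a member has to be read against that shift. The 6 hepatocyte markers had a median of -0.87. Of these, 2 were called lower and 0 higher (0.712% of genes in either direction): Cyp2e1 (-2.51) and Apoa1 (-1.67). Ces3a had a change of -1.68 (SE 0.69, edgeR adjusted p = 0.14), which is -0.69 relative to the median gene. Ces3b had -6.3 (SE 2.3, edgeR adjusted p = 0.1), or -5.31 relative to the median gene. Ces1f, called in IP alone, had -0.11 (SE 2.17, adjusted p = 1), and 4.27 (SE 2.36, adjusted p = 0.35) without hepatectomy KO replicate 2, so 1 animal turns its sign. Its inputs spanned 0.0816 to 52.3 CPM in hepatectomy KO, highest in that replicate, and 0.0824 to 311 CPM in hepatectomy flox animals. Without hepatectomy KO replicate 4, Ces3a passed in KO against flox after hepatectomy (-2.66, edgeR adjusted p = 0.026), in hepatectomy against sham in KO (-3.0, adjusted p = 0.016) and within the hepatectomy KO group (-2.33, adjusted p = 0.0035).

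Of the 9 other carboxylesterase genes of the annotation, 2 could be tested in IP, Ces2c and Ces2g, and neither was called. Both were above 0 in all 16 IP libraries, and in hepatectomy KO animals Ces2c had 18.3, 55.5, 55.9 and 0.701 CPM and Ces2g 35.8, 40.8, 79.5 and 25.7 CPM. Ces1a, Ces1h, Ces2f and Ces5a had at most 5 counts over all 32 libraries. Ces4a appeared in isolated libraries, with 237.5 CPM in the input of sham KO replicate 4 and 1.65 CPM in its IP library.

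Genes that work beside the carboxylesterases were read from lists chosen with earlier results known. Of 23 lipid hydrolase and lipid droplet genes tested in IP, 2 were lower and 0 higher in KO than in flox livers after hepatectomy, where 1.13% of all genes were lower and 0.342% higher. They were G0s2, an inhibitor of the triacylglycerol lipase ATGL (168 ± 216 CPM in flox and 8.28 ± 10.6 in KO, SD, n = 4, log2 change -4.6, edgeR adjusted p = 0.028), and the droplet coat gene Plin4 (107 ± 64.0 and 22.2 ± 15.2 CPM, log2 change -2.54, adjusted p = 0.015). Of 13 nuclear receptors, 3 were lower and 0 higher: Ppara, the fatty acid sensor (log2 change -2.66, adjusted p = 0.00097), Hnf4a, which sets hepatocyte gene expression (-1.29, adjusted p = 0.014), and Rxra, a partner of many nuclear receptors (-1.14, adjusted p = 0.041). Ppara stood at 421 ± 124 CPM in flox and 80.2 ± 45.2 CPM in KO IP libraries (SD, n = 4). Of 12 other esterases tested, 0 were called. The median log2 changes were -0.78 for the lipid list, -0.71 for the receptors and 0.03 for the other esterases, against 0.01 over all genes. Hepatectomy against sham in KO animals called 2 of 13 receptors lower in IP and 0 higher (0.578% and 0.0499% of genes). They were Ppara (-1.95, edgeR adjusted p = 0.027) and Hnf4a (-1.28, adjusted p = 0.03). In IP/input, KO against flox after hepatectomy called 1 of 13 receptors, Hnf4a (-2.13), and 1 of 23 lipid genes, Apob (-1.28), lower (0.712% of genes in either direction).

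Within groups, the members did not move as a block between animals. After removal of the group means, the Pearson correlation of log2(CPM + 1) over the 16 IP libraries ranged from -0.65 to 0.84 over the 45 pairs of members, with a median of 0.09. Ces2a and Ces3a were the most alike in IP (r = 0.84), and Ces1b and Ces1e in input (r = 0.78). Patterns were also compared over 2161 abundant genes, a number that includes the abundant members, and members were then left out of the ranking. Those most like Ces3a were Lgr4, Sephs2 and Pm20d1 (r = 0.92 each), and those most like Ces1c were Vcp, Cyp2c50 and Gfra1 (r = 0.86 each). Hnrnpa2b1 (r = 0.84), Serpinc1 (r = 0.82) and Fasn (r = 0.82) were most like Ces1g. In input the same genes had correlations of -0.28 to 0.3 with their member. The points share library depth and the groups' structure, and these values are descriptions. Ces3a and Ces2a had their widest IP spread in the hepatectomy KO group (coefficient of variation 126% and 124%). How far their correlations rest on that group was not tested.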

How the data were processed

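The submitters' processing notes name fastp (read trimming) and STAR (alignment), without versions, counting program, strand setting or build. The authors deposited a table of estimated counts (an expected count per gene, made from aligned reads) for 55421 genes in 32 libraries, unscaled. Between 1.33% and 8.22% of a library's values were not whole, so near-identical genes may share reads; all were rounded. Genes were named by position against RefSeq GRCm38.p6 (at least 0.5 of the joint span shared and an end within 500 bases): 33597 genes, holding 92.2% of all counts, were named, and 407 after a shift of 1000000 bases.

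Groups were compared in edgeR 4.0.16 (R 4.3.3): TMM factors, filterByExpr (minimum count 10), glmQLFit quasi-likelihood tests, and p-values adjusted by Benjamini-Hochberg over all genes and called below 0.05. Input (8775 genes) and IP (14024 genes) were each fitted over 16 libraries, and IP/input (14332 genes) over 32, where a call within a group also needed an absolute log2 of at least 1. Fits were run on simulated counts with known changes. The simulation did not build in transcripts missed by an input library, so the behaviour of the fits there was not tested. Ratios per animal used a pseudocount of 1 CPM. A gene without counts was given a floor of 3 counts; floors and SDs over PCR reads without molecular identifiers cover counting error and spread between these samples only. Labels pair the input and IP library of an animal; the correlation of the deviations of both from their group means was -0.04 to 0.1 (median 0.04) over 2827 genes in 16 animals.

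The members, lists and tests were chosen with earlier results of these data known. Named genes are the 10 members and Mettl14, up to 4 called genes of each list and comparison, and for the 3 members most abundant in input the 3 most correlated genes. Alternatives were other scalings, DESeq2 1.42.0, other filters, blocks, limma 3.58.1 on ratios per animal, single libraries left out and the removal of the 2 sham flox animals aged 77 days.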

Additional observations from a re-analysis of the deposited data

Results flagged for a closer look

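In 19 of 119 groups of 4 values examined (16%), the gap between the most extreme animal and its nearest neighbour, as a share of the group's range, exceeded Dixon's 95% limit. Chance flags about 1 in 20 groups when values are normally distributed. The CPM values here include zeros beside large values, and the ratios reuse the input and IP values, so the 16% cannot be read against that rate.

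In input these animals stood apart: sham flox replicate 2 for Ces1b (21.7 CPM), hepatectomy flox replicate 1 for Ces1c (1094 CPM), sham KO replicate 4 for Ces1d (132 CPM), sham KO replicate 3 for Ces1e (28.4 CPM), hepatectomy KO replicate 2 for Ces1f (52.3 CPM), hepatectomy flox replicate 4 for Ces2a (122 CPM) and for Ces3a (969 CPM), and hepatectomy KO replicate 3 for Ces3b (192 CPM). In each of these the animal was above the rest of its group.

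In IP, sham flox replicate 2 was low for Ces1b (4.53 CPM), sham KO replicate 2 high for Ces1c (1274 CPM), sham KO replicate 3 low for Ces1e (13.7 CPM) and sham flox replicate 3 low for Ces3b (145 CPM). The others were hepatectomy KO animals, with replicate 4 high for Ces3a (657 CPM) and replicate 3 high for Ces3b (7.82 CPM). The last pair bears on the IP comparisons, which the report gives with and without those libraries.

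For log2 IP/input per animal, sham flox replicate 2 stood apart for Ces1b (-2.04) and Ces3b (8.2), sham flox replicate 1 for Ces1c (-1.02), sham KO replicate 3 for Ces1e (-1.0) and sham KO replicate 1 for Ces3b (6.83). Both large positive values of Ces3b come from animals with 1 and 4 counts of it in input.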

How the results depend on the processing

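No called gene changed direction in 72 values under alternatives, and 65 kept their call; the 7 that lost it were all for Ces1d between hepatectomy and sham KO in IP (without TMM factors adjusted p = 0.058, without the animals aged 77 days 0.06, the rest with a library left out). With no filter on low counts, edgeR called 4 members for KO against flox after hepatectomy in IP, 5 for hepatectomy against sham in KO and 1 for the interaction. Leaving out a library in turn gave 2 to 5, 2 to 5 and 0 to 1 in those comparisons, and 0 to 1 for IP/input within hepatectomy KO, for KO against flox after hepatectomy and for hepatectomy against sham in KO. DESeq2 called 1 member in input in KO against flox in sham and hepatectomised animals, in hepatectomy against sham in flox and in the interaction, and 1 in IP/input within each hepatectomy group, in KO against flox after hepatectomy, in hepatectomy against sham in flox and in the interaction, where edgeR called 0. With the replicate number as a block, 3 and 3 members were called in the IP comparisons with 2 and 3 calls. With the animal as the block IP/input called 0, so pairing changed no call there. A pseudocount of 5 CPM moved 2 of 40 mean ratios and TMM scaling 1. Members that were not called did change sign in places, such as Ces1f in IP/input between KO and flox after hepatectomy (-0.11, and 4.27 without hepatectomy KO replicate 2) and between hepatectomy and sham in KO (-1.01 and 3.53). Pairs with 3 or fewer input counts and 10 or more IP counts, 26 of 160, limit IP/input.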
